A study of Mus musculus with 2 samples.

Results

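Polycomb repressive complex 2 (PRC2) was examined through the transcripts of its subunits in mouse round spermatids, haploid germ cells that have finished meiosis and not yet begun to elongate. The members were 10 gene symbols taken from the complex as it is known in mammals (Ezh1, Ezh2, Eed, Suz12, Rbbp4, Rbbp7, Jarid2, Mtf2, Phf1 and Phf19), and all 10 were found among the 23234 genes of the deposited table. The comparison was between 2 genotypes on the C57BL/6 background, with 1 RNA-seq library each. The first library is labelled Epc-dKO and comes from mice deficient for both Epc1 and Epc2, genes whose proteins belong to the NuA4/TIP60 histone acetyltransferase, and the second comes from wild-type (WT) mice. The sources used here do not give how the deficiency was made or in which cells, the age and number of the animals, or the way the spermatids were isolated. Values are FPKM, fragment numbers scaled to the length of the transcript and the size of the library, so levels can be compared between genes. Between libraries they can be compared only as far as that scaling holds, and some calls below change with it. No difference can be checked against replicates, since there are none, so genotypes are not tested and no p-value is printed.

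PRC2 methylates lysine 27 of histone H3, a mark of silenced developmental genes. EZH1 or EZH2 provides the catalytic SET domain, EED and SUZ12 hold the core together, and the histone-binding WD40 proteins RBBP4 or RBBP7 complete it. The accessory subunits fall into alternative forms of the complex: the Polycomb-like proteins PHF1, MTF2 and PHF19 define one, and JARID2 with AEBP2 the other. In the mouse male germ line, loss of EED or SUZ12 is known to disrupt spermatogenesis, and EZH1 is known to supply part of the catalytic activity in germ cells.

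EZH1 and EZH2, and RBBP4 and RBBP7, are close paralogs, so it matters whether a sequenced fragment can be assigned to one of them. The sequences below show, in capitals, the longest stretch of bases that the longest RefSeq-linked coding transcripts of each pair share, with the neighbouring coding bases in lower case. They are given 5′ to 3′ on the strand of the transcript, from GENCODE M21 on GRCm38.

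Ezh1 (chr11:101192942-101192997, minus strand): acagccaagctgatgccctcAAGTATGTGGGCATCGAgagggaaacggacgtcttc

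Ezh2 (chr6:47530544-47530599, minus strand): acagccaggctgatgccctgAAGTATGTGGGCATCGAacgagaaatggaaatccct

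Rbbp4 (chr4:129322777-129322836, minus strand): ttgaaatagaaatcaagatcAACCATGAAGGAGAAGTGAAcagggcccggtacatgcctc

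Rbbp7 (chrX:162769797-162769856, plus strand): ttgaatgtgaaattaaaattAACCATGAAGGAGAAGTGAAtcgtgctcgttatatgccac

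The shared run was 17 bases long for Ezh1 and Ezh2 and 20 bases for Rbbp4 and Rbbp7, and among Mtf2, Phf1 and Phf19 no pair shared more than 17. No stretch of 50 bases was therefore common to paralogs. Sharing with other genes was small on the same strand: 9.38% of the 50-base stretches of Rbbp7 also occurred in the gene Gm6382 and 0.872% of those of Rbbp4 in other genes, against 0.0249% for Mtf2 and 0% for the other 7 members. On the opposite strand, 32.1% of the Phf1 transcript lay over exons of Cuta, which had an FPKM of 2.35 in the library labelled Epc-dKO and 3.91 in the WT library, and 7.75% of Rbbp7 lay over Txlng, with 0.983 and 1.71 in the same order. Antisense exons of Gm26722 covered 18.1% of the Rbbp4 transcript and those of Sync 17.7%, with Sync at 0.0400 FPKM in the library labelled Epc-dKO and 0.132 FPKM in the WT library. For Eed the figure was 12.6% over E230029C05Rik, at 0.764 FPKM in the library labelled Epc-dKO and 0.169 in the WT library. The library kit keeps the strand, but whether the counting used it is not given, so the part of such antisense reads was not tested.

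No PRC2 member passed the fixed rule of a 2-fold difference on a log2 scale, for which 1 was added to each FPKM and the library labelled Epc-dKO was divided by the WT library. Of the 10 members, 8 were expressed, defined as averaging at least 1 FPKM across the pair of libraries, and of these 0 were at least 2-fold higher and 0 at least 2-fold lower. Among all 10438 expressed genes the shares were 2.75% higher and 1.88% lower (4.63% in all), so a count of 0 among 8 genes is near the background and is no result about the members. The split of these calls was 287 genes higher and 196 lower as deposited, against 545 higher and 1054 lower after rescaling to TPM, a step that also lets lower genes pass the minimum and lessens the weight of the added 1. The log2 ratio of 6 of the 8 was below 0, against 54.4% of all expressed genes, and their median was -0.30, against -0.05 for all expressed genes with quartiles of -0.34 and 0.24. Ezh2 and Mtf2 were the 2 members with a log2 ratio above 0.

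**Figure D1:**
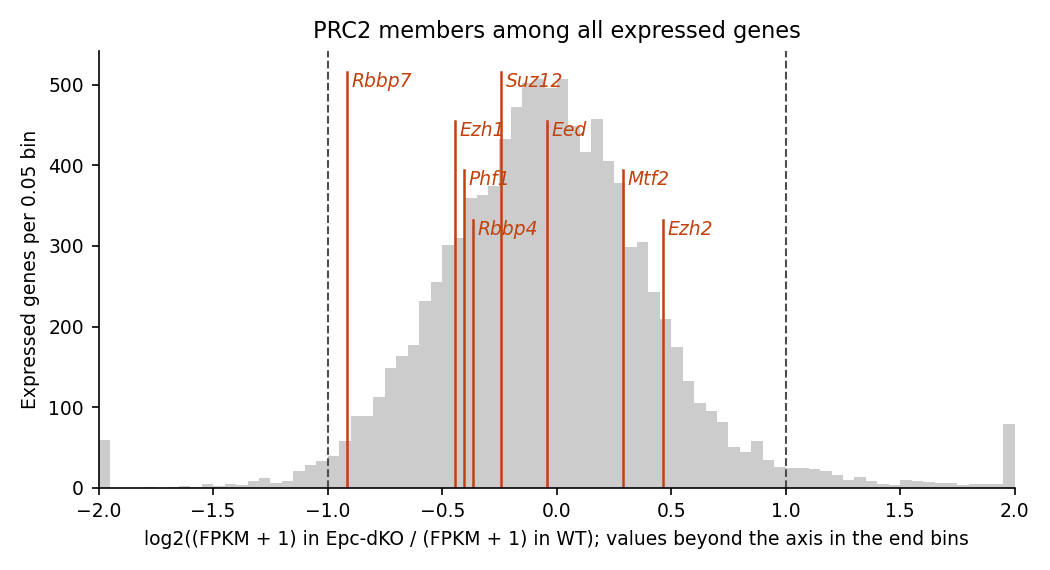
Log2 ratios of the 8 expressed PRC2 members (orange lines) over the histogram of all 10438 expressed genes (grey, genes per bin of 0.05, with values beyond the axis in the end bins). Dashed lines mark the 2-fold rule. All 8 members lie between the dashed lines, with Rbbp7 at -0.92 closest to one of them and Ezh2 at 0.46 farthest to the right.

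The spread of values that counting alone would give could be approximated from the lowest values of the table. FPKM was multiplied by length in kilobases in genes with a single annotated transcript longer than 2000 nt. The first peak lay at 0.0268 in the library labelled Epc-dKO (68 of 1341 genes) and 0.0293 in the WT library (67 of 1360 genes). Each was taken as the step of 1 fragment. A further value, at 1.97 and 2.00 times the first, came from a window set around 2 times the peak, so it does not check this step. If the step holds, the libraries had about 37300000 mapped fragments (labelled Epc-dKO) and 34100000 (WT). The intervals below are exact binomial intervals (95%) from the approximate fragment numbers, computed with the shortest RefSeq-linked transcript of each gene. They cover counting error only, not the variation between animals or preparations. They also take each fragment as independent and the scaling as exact, although the libraries were PCR amplified and the scaling between them is not given. An interval that leaves out a ratio of 1 thus says only that the 2 values differ by more than counting error under these assumptions. It says nothing of the genotypes.

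Of the catalytic subunits, Ezh2 had an FPKM of 17.8 in the library labelled Epc-dKO and 12.7 in the WT library, a log2 ratio of 0.46. The FPKM ratio was 1.41, with a counting interval of 1.31 to 1.52 on about 1848 and 1199 fragments. Ezh1 had an FPKM of 3.72 in the library labelled Epc-dKO and 5.43 in the WT library, a log2 ratio of -0.45 and an FPKM ratio of 0.685 (0.615 to 0.764). The paralogs thus had values on opposite sides of 1, Ezh2 with the higher FPKM in the library labelled Epc-dKO and Ezh1 with the higher FPKM in WT. Among all expressed genes the log2 ratio of Ezh2 stood at percentile 88.0 and that of Ezh1 at percentile 18.1.

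Ezh2 was the more abundant of the catalytic paralogs in both libraries. Its FPKM was 4.79 times that of Ezh1 in the library labelled Epc-dKO and 2.33 times in the WT library. Ezh1 accounted for 17.3% of the summed FPKM of both genes in the library labelled Epc-dKO and for 30.0% in the WT library, a difference of -12.7 percentage points. The sum itself was 21.6 FPKM in the library labelled Epc-dKO and 18.1 FPKM in the WT library.

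**Figure D2:**
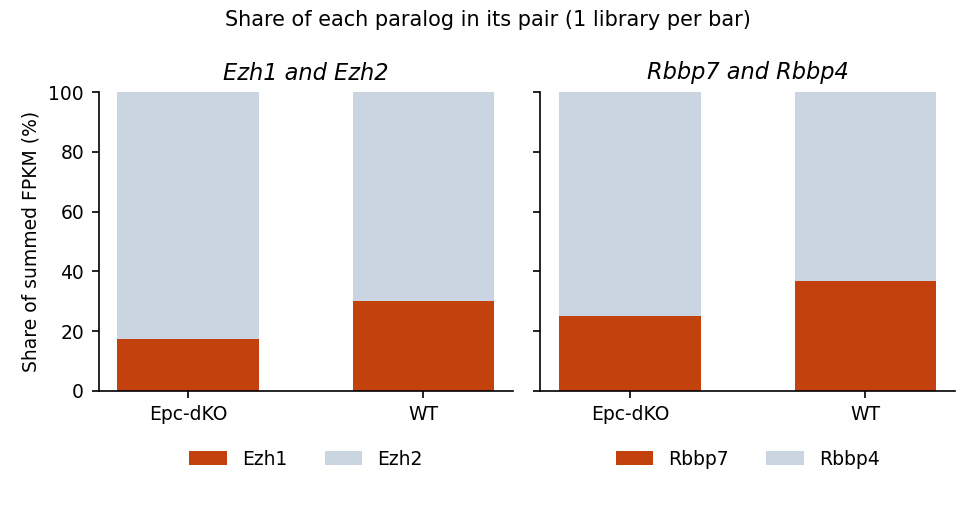
Share of the summed FPKM taken by Ezh1 (orange) and Ezh2 (grey), and by Rbbp7 (orange) and Rbbp4 (grey), in the library labelled Epc-dKO (left bar) and the WT library (right bar), 1 library per bar and no error bars. The orange share is smaller in the library labelled Epc-dKO in both pairs, at 17.3% against 30.0% for Ezh1 and 24.9% against 36.9% for Rbbp7.

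The scaffold subunits had close values in both libraries. Eed, which encodes the subunit that binds methylated lysine 27, had an FPKM of 4.46 in the library labelled Epc-dKO and 4.62 in the WT library (log2 ratio -0.04, at percentile 50.3 of all expressed genes). Its counting interval of 0.826 to 1.13 included a ratio of 1. Suz12, for the subunit on which the accessory proteins assemble, had 4.51 and 5.52 FPKM in the same order, a log2 ratio of -0.24 and an FPKM ratio of 0.817 (0.739 to 0.905). Eed and Suz12 were at similar levels, with an Eed level 0.989 times that of Suz12 in the library labelled Epc-dKO and 0.837 times in the WT library. The catalytic paralogs together were above them, at 4.78 times the Suz12 FPKM in the library labelled Epc-dKO and 3.28 times in the WT library.

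Rbbp7 had the lowest ratio of the 8 expressed members and came closest to the 2-fold rule. Its FPKM was 1.87 in the library labelled Epc-dKO and 4.41 in the WT library, a log2 ratio of -0.92 at percentile 2.63 of all expressed genes. The added 1 carries weight at these low levels. The plain FPKM was 2.36-fold lower in the library labelled Epc-dKO, a ratio of 0.423 with a counting interval of 0.347 to 0.511 on about 156 and 338 fragments. With an added 0.5 in place of 1 the log2 ratio was -1.05, with 0.1 it was -1.20 and with both libraries rescaled to TPM it was -1.19, all of them past 2-fold.

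Rbbp4, its paralog, had an FPKM of 5.62 in the library labelled Epc-dKO and 7.54 in the WT library, a log2 ratio of -0.37 and an FPKM ratio of 0.746 (0.684 to 0.815). Rbbp7 made up 24.9% of the summed FPKM of both in the library labelled Epc-dKO and 36.9% in the WT library. The sum was 7.49 FPKM in the library labelled Epc-dKO and 11.9 FPKM in the WT library, or 1.66 and 2.16 times the Suz12 level. Proteins of both genes also belong to other chromatin complexes, whose genes are given further on.

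The Polycomb-like subunits differed most in level. Phf1 was the most abundant PRC2 member in both libraries, with an FPKM of 51.4 in the library labelled Epc-dKO and 68.4 in the WT library (log2 ratio -0.41). Its level stood at percentile 91.7 of the expressed genes in the library labelled Epc-dKO and 94.6 in the WT library, and its FPKM ratio was 0.751 (0.721 to 0.784). Mtf2 had an FPKM of 2.23 in the library labelled Epc-dKO and 1.65 in the WT library, a log2 ratio of 0.29 and an FPKM ratio of 1.35 (1.14 to 1.61). Phf19 was at 0.0207 FPKM in the library labelled Epc-dKO and 0.114 FPKM in the WT library, which correspond to about 3 and 15 fragments, and it did not reach the minimum.

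Phf1 thus made up 95.8% of the summed FPKM of the 3 Polycomb-like genes in the library labelled Epc-dKO and 97.5% in the WT library. Mtf2 contributed 4.16% in the library labelled Epc-dKO and 2.35% in the WT library. The level of Phf1 was 11.4 times that of Suz12 in the library labelled Epc-dKO and 12.4 times in the WT library.

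Jarid2, which encodes the accessory subunit that defines the other form of the complex, was listed at 0 in both libraries. An exact 0 in this table need not be an absence of reads: Lars2, for the mitochondrial leucyl-tRNA synthetase that cells with mitochondria need, was chosen after its values were seen and was also listed at 0 in both libraries, as were 2609 genes in all. No statement on the level of Jarid2 is made from this value.

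**Figure D3:**
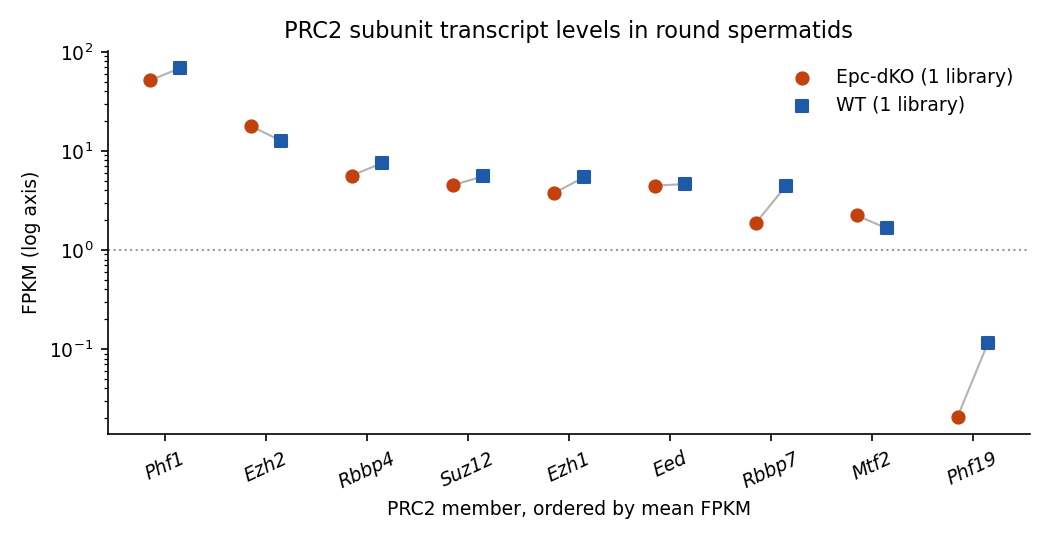
FPKM (log axis) of the 9 PRC2 members with a value above 0, with the library labelled Epc-dKO as circles on the left and the WT library as squares on the right of each pair, ordered by mean FPKM. The dotted line marks 1 FPKM. Phf1 and Ezh2 lead in both libraries, Phf19 lies far below 1, and Jarid2, listed at 0 in both, cannot be drawn on a log axis.

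The order of levels was largely shared by the libraries. In the library labelled Epc-dKO it ran Phf1, Ezh2, Rbbp4, Suz12, Eed, Ezh1, Mtf2, Rbbp7 and Phf19, and in the WT library Phf1, Ezh2, Rbbp4, Suz12, Ezh1, Eed, Rbbp7, Mtf2 and Phf19. Without replicates it cannot be said which neighbours in this order differ beyond their spread. Suz12 and Eed in the library labelled Epc-dKO, at 4.51 and 4.46 FPKM, and Suz12 and Ezh1 in the WT library, at 5.52 and 5.43 FPKM, were within 0.1 FPKM of each other. The median FPKM of the 8 expressed members was 4.49 in the library labelled Epc-dKO and 5.48 in the WT library, close to the medians of 5.04 and 5.21 over all expressed genes.

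**Figure D4:**
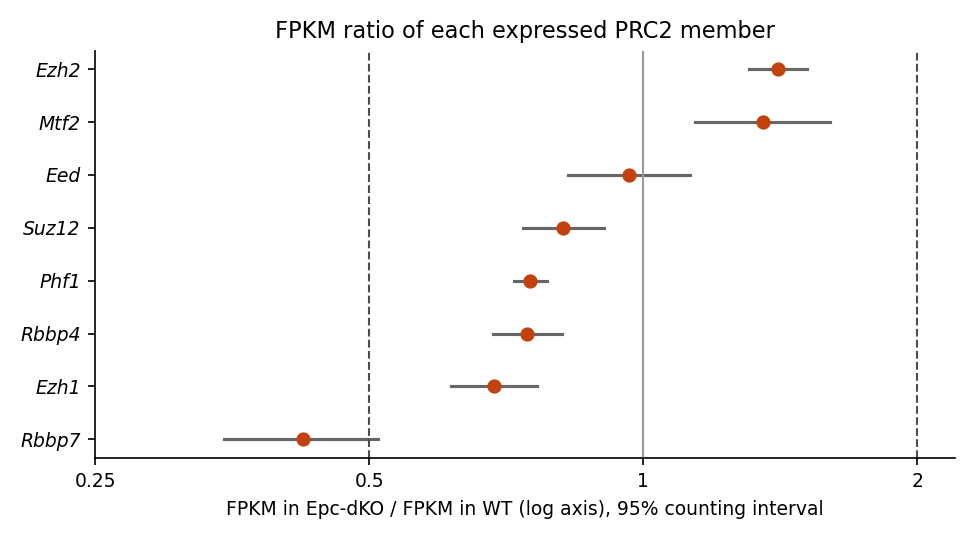
Plain FPKM ratio, library labelled Epc-dKO over WT library (log axis), for the 8 expressed PRC2 members, with 95% intervals that cover counting error only. Dashed lines mark ratios of 0.5 and 2. Rbbp7 at 0.423 is the 1 member whose plain FPKM ratio lies beyond a dashed line, and its interval of 0.347 to 0.511 crosses that line.

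Rbbp7 was the one X-linked gene among the 8 expressed members. In a grouping by chromosome chosen after earlier results were known, the 326 expressed X-linked genes had a median log2 ratio of -0.47 and 82.8% of them lay below 0, against a median of -0.03 and 53.4% below 0 for 10028 autosomal genes. The share at least 2-fold lower was 4.91% of X-linked and 1.7% of autosomal genes. The remaining 7 members, all autosomal, had a median of -0.24 and a range of -0.45 to 0.46. Rbbp7 lay below the X-linked lower quartile of -0.69. How much of its value goes with its chromosome was not tested.

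Other partners of PRC2 lay on both sides of 0. Of 7 genes, 5 were expressed and 0 passed the 2-fold rule, near the 4.63% of all expressed genes. Their median log2 ratio was 0.04. This median was -0.37 after rescaling to TPM and -0.27 without a minimum. Aebp2, which encodes the partner of JARID2, had an FPKM of 10.5 in the library labelled Epc-dKO and 10.1 in the WT library, or 2.32 and 1.84 times the Suz12 level. Cdyl, for a chromodomain protein that binds EZH2, had 16.6 and 14.1 FPKM in the same order. Ppp1r8, for a phosphatase regulator reported to bind EZH2, had 2.34 in the library labelled Epc-dKO and 4.98 in the WT library (log2 ratio -0.84).

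The remaining 4 partners were low. Lcor, a gene whose locus also encodes a PRC2 partner, had 0.767 FPKM in the library labelled Epc-dKO and 1.39 in the WT library, and its relative Lcorl had 2.22 and 2.01. AU022751, the mouse symbol for Ezhip, whose protein inhibits the methyltransferase activity of PRC2, had 0.403 in the library labelled Epc-dKO and 1.5 in the WT library. This gene is X-linked, and its mean was just under the minimum, with a log2 ratio of -0.83. E130012A19Rik, the older symbol for Epop, a PRC2 partner known from embryonic stem cells, had 0.0689 and 0.292 FPKM in the same order.

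Genes for enzymes that remove the PRC2 mark, and for a Y-linked relative, had lower values in the library labelled Epc-dKO without passing the rule. Of these 3 genes 2 were expressed and 0 passed 2-fold, near the 4.63% of all expressed genes. Kdm6b, for the demethylase JMJD3, had an FPKM of 5.75 in the library labelled Epc-dKO and 12.3 in the WT library, a log2 ratio of -0.98 that was just inside 2-fold, while the plain FPKM was 2.14-fold lower. The X-linked demethylase gene Kdm6a had 0.726 and 1.78 in the same order, a log2 ratio of -0.68 and a plain FPKM that was 2.44-fold lower. Uty, its Y-linked relative, had 0.537 in the library labelled Epc-dKO and 1.13 in the WT library and stayed under the minimum. All 3 had lower values in the library labelled Epc-dKO. Of all expressed genes 54.4% also had a log2 ratio below 0, and of the X-linked ones 82.8%. Kdm6a reached the minimum through its WT value. Of the 8 expressed PRC2 members 6 had lower values, Ezh1 among them, while Ezh2 and Mtf2 had higher values. The Kdm6b call depended on the scaling, and its log2 ratio passed 2-fold with an added 0.5 or 0.1 and in 3 of the 4 rescalings, but not in that to a median ratio of 1. With an added 0.1 and after rescaling to TPM, Kdm6a passed as well and 2 demethylase genes were lower. Over all expressed genes the lower count rose from 196 to 652 and 1054 in the same order.

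PRC1, the complex that binds or acts alongside the PRC2 mark and ubiquitinates histone H2A, had 1 of 26 expressed members past 2-fold, near the background of 4.63% of all expressed genes. That gene was the X-linked Scml2, whose protein is a germ cell component of PRC1 in the mouse. It fell to an FPKM of 3.24 in the library labelled Epc-dKO, against 7.60 in the WT library (log2 ratio -1.02), but stayed within 2-fold when the libraries were rescaled to a median ratio of 1. The median of the 26 genes was -0.10 and 17 of them lay below 0. The count of lower PRC1 genes was 5 with an added 0.1, 4 after rescaling to TPM and 6 under a 1.5-fold rule. Over all expressed genes the lower count also rose, from 196 to 652, 1054 and 1127 in the same order. Phc1, for a polyhomeotic subunit, was the most abundant at 102.8 FPKM in the library labelled Epc-dKO and 96.3 in the WT library. Usp7, for a deubiquitinase that binds PRC1, followed with 90.4 and 70.4. Bmi1, for a Polycomb ring finger subunit, had the highest log2 ratio, 0.46, with 12.7 FPKM in the library labelled Epc-dKO and 8.91 in the WT library.

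Of the PR-DUB genes, whose complex removes the ubiquitin that PRC1 adds, 10 of 11 were expressed, with a median of -0.06. The count past 2-fold was 0, near the 4.63% of all expressed genes. Bap1, for the catalytic subunit, had 49.998 FPKM in the library labelled Epc-dKO and 64.0 in the WT library, and Asxl1, for its activating partner, had 30.8 and 32.5. The extremes were the forkhead gene Foxk1 at 0.60 and the X-linked Hcfc1 at -0.71. Over the members and the related chromatin lists of PRC2, PRC1, PR-DUB and the complexes below, all 7 expressed X-linked genes had a log2 ratio below 0, with a median of -0.68, against 39 of 74 autosomal genes with a median of -0.02. Since 82.8% of all expressed X-linked genes lay below 0, 7 of 7 is near the share of their chromosome. These 7 were Bcor, Bcorl1, Hcfc1, Kdm6a, Ogt, Rbbp7 and Scml2, and Ogt, at -0.04, was near 0.

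Genes of the other complexes that contain RBBP4 or RBBP7 had medians close to 0. All 13 genes of the NuRD remodelling and deacetylase complex were expressed, with a median of 0.08. The count past 2-fold was 0, near the 4.63% of all expressed genes. Chd5 had 88.8 FPKM in the library labelled Epc-dKO and 113 in the WT library, and Chd4 had 75.7 and 88.8, both for chromodomain helicases. The highest log2 ratio was that of the methyl-CpG-binding gene Mbd2 at 0.93, with 7.82 FPKM in the library labelled Epc-dKO and 3.62 in the WT library, just inside 2-fold. The count of higher NuRD genes was 1 with an added 0.5 or 0.1 and after rescaling to TPM. Over all expressed genes the higher count was 346, 433 and 545 in these settings, against 287 in the main one. Genes of the Sin3, CAF-1, HAT1, NURF and MuvB complexes had 17 of 22 expressed members and a median of 0.01. Of these 0 were past 2-fold, also near the background. Brms1 had 89.3 and 101.7 FPKM, and the CAF-1 gene Chaf1a 84.4 and 85.0, in the same order. Bptf, for the largest NURF subunit, was highest at 0.82 and Chaf1b lowest at -0.45.

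**Figure D5:**
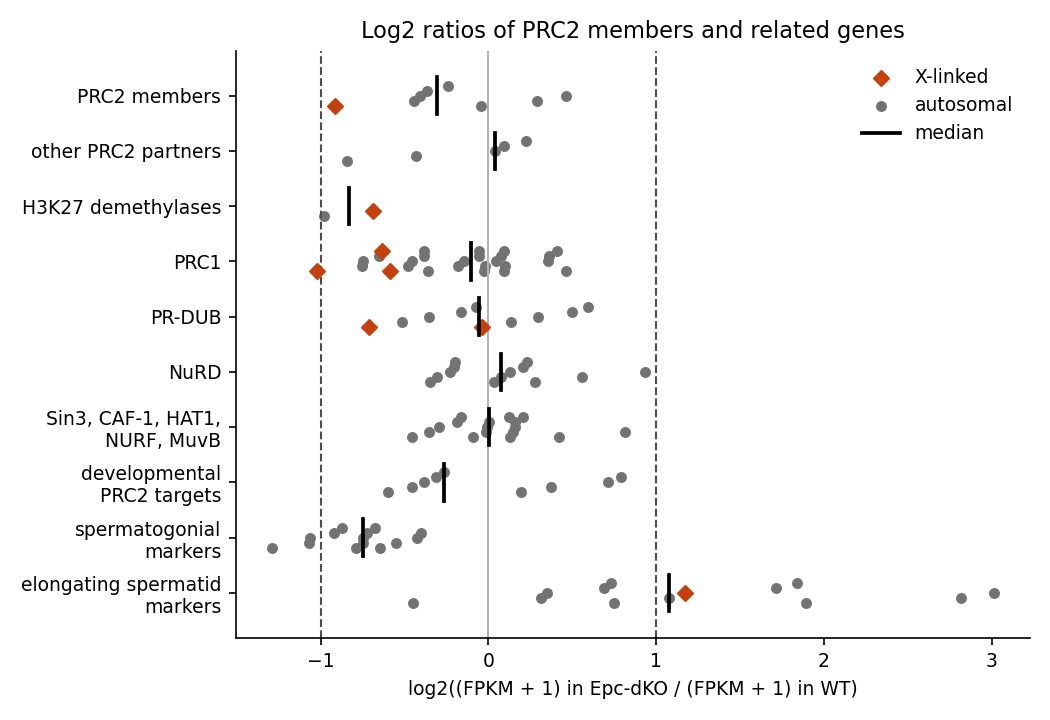
Log2 ratio of every expressed gene in the PRC2 members and related lists, 1 point per gene, with X-linked genes as orange diamonds and the others as grey circles. Black bars are list medians and dashed lines mark the 2-fold rule. The PRC2 members range from -0.92 to 0.46, and the X-linked points of the chromatin lists all lie below 0. The medians of the spermatogonial and elongating spermatid lists lie on opposite sides of 0, at -0.75 and 1.08.

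Developmental regulators that are known targets of PRC2 in embryonic cells were low in both libraries. Of 102 listed genes 101 were in the table, 9 were expressed and 11 were listed at 0 in both libraries. Their FPKM summed to 36.1 in the library labelled Epc-dKO and 36.5 in the WT library, and 8 genes reached 1 FPKM in each. None of the 9 passed the 2-fold rule, near the 4.63% of all expressed genes. Their median was -0.27. Its sign was not stable, with 0.14 after rescaling to TPM, and it was -0.0076 without a minimum. With a minimum mean of 5 FPKM only Hoxd8 was left, with a log2 ratio of 0.19. With an added 0.1, 2 targets were higher, while the higher count over all expressed genes rose from 287 to 433. The most abundant was the homeobox gene Hoxd8, with 8.94 FPKM in the library labelled Epc-dKO and 7.70 in the WT library. Gata2 had 3.41 and 4.47, Six2 had 2.11 and 3.26, and Sox17 had 2.07 and 2.69 FPKM, each for a developmental transcription factor. Chosen after their values were seen, Hoxa3 had 1.74 in the library labelled Epc-dKO and 0.588 in the WT library (log2 ratio 0.79), and Emx2 had 2.50 and 1.14 (0.71). The lowest ratio was that of Cdkn2a, the locus of the cell cycle inhibitors p16 and p19 in the mouse, with 0.848 in the library labelled Epc-dKO and 1.79 in the WT library (-0.60). Transcript levels do not show whether the mark was present at these genes.

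The libraries also differed in markers of cell stages, and these values stand beside every ratio above. All 20 round spermatid markers were expressed, with summed FPKM of 1155 in the library labelled Epc-dKO and 1154 in the WT library. Of these 0 passed 2-fold, against 4.63% of all expressed genes. Of the 19 spermatogonial markers 14 were expressed and these 14 lay below 0. Gfra1, Sall4, Lin28a and Ret were among them through their WT values, with an FPKM below 1 in the library labelled Epc-dKO. Id4, the one marker above 0, was under the minimum, with 1.14 FPKM in the library labelled Epc-dKO and 0.630 in the WT library. The 19 markers summed to 24.9 FPKM in the library labelled Epc-dKO and 53.8 in the WT library. Dmrt1, Crabp1 and Mcam were past 2-fold, 3 of 14 against 1.88% of all expressed genes. This count was 9 with an added 0.1, 7 with 0.5, 10 after rescaling to TPM and 11 under a 1.5-fold rule. Over all expressed genes the lower count moved from 196 to 652, 364, 1054 and 1127 in the same order. With a minimum mean of 5 FPKM only Dazl was left of these markers, with a log2 ratio of -0.92. The count of 0 for these markers at that minimum thus rests on Dazl alone. Over all expressed genes the lower count at that minimum was 105. Of 13 expressed genes on the elongating spermatid list 12 lay above 0 and 1, Prm3, below (11.5 FPKM in the library labelled Epc-dKO and 16.1 in the WT library). At least 2-fold higher were 7 (Prm1, Prm2, Tnp1, Tnp2, Akap4, Spem1 and Tssk6), against 2.75% of all expressed genes. The list summed to 2070 FPKM in the library labelled Epc-dKO and 807 FPKM in the WT library, with Prm2 alone at 675 and 82.8. These transcripts do not show whether the cells had elongated. Spermatocyte markers summed to 371 FPKM in the library labelled Epc-dKO and 388 FPKM in the WT library. In the same order, Sertoli markers summed to 11.2 and 17.5, Leydig and peritubular markers to 30.8 and 45.9, and blood and endothelial markers to 4.42 and 5.43. Of 10 expressed Leydig and peritubular markers 8 lay below 0 and 2 above, and 1 was at least 2-fold lower, against 1.88% of all expressed genes. That 1 was Insl3, for a Leydig cell hormone, with 6.79 FPKM in the library labelled Epc-dKO and 14.9 in the WT library. The lower count of this list was 2 with an added 0.1 or 0.5, and 3 after rescaling to TPM or under a 1.5-fold rule. The lower counts over all expressed genes in these settings are those given above for the spermatogonial markers. Insl3 stayed within 2-fold with a median ratio of 1. The Leydig marker Cyp17a1 went the other way, with 8.79 and 7.78 FPKM in the same order. Hbb-b1 and Hba-a1 were the markers listed at 0 in both. The part of these differences in the PRC2 values was not tested. In such bulk samples a change in cell numbers and a change in RNA per cell cannot be told apart.

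Epc1 had an FPKM of 13.6 in the library labelled Epc-dKO and 11.4 in the WT library, and Epc2 had 10.5 and 7.12. Both values were thus higher in the library labelled Epc-dKO. The allele is not given, and it is not known whether it would lower an FPKM taken over the whole gene, so these values do not check the label.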

How the data were processed

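Total RNA of round spermatids was sequenced from directional libraries (NEBNext Ultra Directional kit, PCR amplified, Illumina HiSeq), per the labels' protocols. The authors deposited 1 table of FPKM, with a row per gene and 1 column per library. Cufflinks 2.2.1 and mm9 were used, per the submitters' processing notes. The sources used here do not give the aligner, annotation, strand setting or scaling between libraries. PCR duplicates cannot be seen in FPKM.

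Of 23235 rows, 1 held no gene and was left out, and 0 symbols were duplicated. Members, gene lists and the grouping by chromosome were chosen with earlier results of these data known. Named genes were all members, the other PRC2 partners and the demethylases, in each further chromatin list the 2 most abundant and most extreme genes, the 4 most abundant developmental targets, and all listed genes past 2-fold. The rule also covers abundant and extreme markers, given here as sums only except for those past 2-fold, Prm3, Cyp17a1 and some spermatogonial markers. Those spermatogonial markers were Id4, Dazl, Gfra1, Sall4, Lin28a and Ret. They, Hoxa3, Emx2, Cdkn2a and Lars2 were chosen after their values were seen. Chromosomes, transcripts and sequences came from GENCODE M21 and RefSeq on GRCm38, matched by symbol (99.3% of expressed genes had a chromosome). No mm9 coordinate is printed. Alternatives were pseudocounts of 0.1 and 0.5, 4 rescalings, no minimum FPKM or a minimum mean of 5, and a 1.5-fold rule, and, added after seeing the data, leaving out X-linked or small RNA genes. Computations ran in Python 3.11.15 with pandas 2.3.3, NumPy 2.4.6, Matplotlib 3.10.9 and SciPy 1.17.1.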

Additional observations from a re-analysis of the deposited data

How the results depend on the processing

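Ratios of the 8 expressed members kept their sign and their side of 2-fold in 44 of 48 comparisons, over 2 pseudocounts and 4 rescalings. The exceptions were Rbbp7, which passed 2-fold at -1.20 (pseudocount 0.1), -1.05 (pseudocount 0.5) and -1.19 (both libraries rescaled to the TPM scale, where the added 1 weighs less), so that 1 member was lower, and Eed, which stood at 0.0027 with a median ratio of 1. With a pseudocount of 0.1, lower counts became 1 for other PRC2 partners, 2 for demethylases and 5 for PRC1, higher counts 1 for NuRD and 2 for developmental targets, and the demethylase median -1.13. With 0.5 there was 1 lower demethylase, 1 higher NuRD gene and 1 higher target, and a demethylase median of -0.96. On the TPM scale, lower counts were 2, 2 and 4 for partners, demethylases and PRC1, higher counts 1 for NuRD and 1 for targets, and medians -0.37, -1.10, -0.25 and 0.14 for partners, demethylases, PRC1 and targets. With a median ratio of 1, PRC1 had 0 lower genes. With equal upper quartiles, or without the 100 highest genes, 1 demethylase was lower. Under the 1.5-fold rule, lower counts were 1 for members, 1 for partners, 2 for demethylases, 6 for PRC1, 1 for PR-DUB and 1 for targets, and higher counts 1 for PR-DUB, 1 for NuRD, 1 for the Sin3 to MuvB list and 2 for targets. Without a minimum, medians were -0.18 for members, -0.27 for partners, -0.68 for demethylases and -0.0076 for targets. With a minimum mean of 5, demethylases stood at -0.98, from Kdm6b alone, and targets at 0.19, from Hoxd8 alone. Without X-linked genes, an alternative added after seeing the data, the demethylase value was -0.98, again from Kdm6b alone, and PRC1 had 0 lower genes. The Rbbp7 share was 30.2% in the library labelled Epc-dKO when 1 was added to each FPKM first. Over all genes, 287 higher and 196 lower became 433 higher and 652 lower at a pseudocount of 0.1, 364 lower at 0.5, 545 and 1054 on the TPM scale, 166 and 105 with a minimum of 5, and 837 and 1127 under the 1.5-fold rule. The cause of these shifts was not tested unless given. No paired analysis was possible because the genotypes have 1 library each. Fragment numbers rest on annotated lengths and on the assumed step of 1 fragment, and limit statements on Phf19.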
